A study of Mus musculus with 24 samples.

Results

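The transition from day 3 to the GFP-negative cells of day 4 was read from 6 of the 24 RNA libraries of an optic vesicle (OV) organoid time course: the 3 day 3 replicates and the 3 day 4 GFP-negative replicates, taken by their labels. Genes were not preselected. Of 49705 entries in the expression table, 21005 had a DESeq2-normalized count (reads assigned to a gene divided by a library size factor) of at least 10 in at least 3 of the 24 libraries and were tested in both directions, and 16671 entries were at 0 in all 6 libraries. A gene was said to rise or fall when its Benjamini-Hochberg adjusted p from limma was under 0.001 and its absolute log2-fold-change, on the scale log2(normalized count + 1), was above 1.5. Errors on log2-fold-changes are standard errors (SE) of that fit.

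All groups came from 1 mouse embryonic stem cell (mESC) reporter line, Rx-GFP K/I EB5, which carries GFP in the Rax locus, and no group had another genotype or drug. The cells were aggregated in SFEBq culture (serum-free floating aggregates) with Matrigel, and each library was polyA RNA from a pool of dissociated organoids. Day 3 libraries held all live single cells whether or not they had GFP. On day 4 the live cells were split into a GFP-positive and a GFP-negative library, and the gate was placed so that weakly fluorescent cells went into the GFP-negative one. The GFP-negative cells are therefore defined by low reporter signal and not by a marker of their own. The study describes the replicates as biological triplicates without saying whether they came from separate culture runs, so the p-values measure the spread between these pools.

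Cells leaving pluripotency in such aggregates can become anterior neural plate, from which forebrain and the Rax-expressing eye field arise. Wnt, FGF and retinoic acid signals push neural tissue towards midbrain, hindbrain and spinal fates, while Wnt and Nodal signals in the primitive streak give mesoderm and endoderm. Hox genes mark positions from the hindbrain backwards, and loss of E-cadherin for N-cadherin accompanies both neural and mesodermal fates.

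Total normalized counts ranged from 45269622 to 47452002 in the day 3 libraries and from 42359014 to 45695739 in the day 4 GFP-negative libraries, and the estimated depth over all 24 libraries was 37.0 to 54.4 (in units of 1e6 assigned reads). Replicates correlated with a Spearman rho across genes of 0.981 to 0.991 on day 3 and 0.979 to 0.992 in the day 4 GFP-negative cells. The pairs with day 3 replicate 1 were at 0.982 and 0.981, and those with GFP-negative replicate 3 at 0.979 and 0.981. Mitochondrial genes took 1.75% to 6.0% of the counts in the day 3 libraries and 2.84% to 3.85% in the GFP-negative libraries.

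Rax, the reporter locus, was low but above day 3 in the GFP-negative cells. It was at 156, 89.3 and 101 normalized counts in the day 3 libraries, at 960, 1018 and 946 in the day 4 GFP-negative libraries and at 9967, 9609 and 9100 in the day 4 GFP-positive libraries. The 3 groups did not overlap, and the GFP-negative mean was 10.2% of the GFP-positive mean. In bulk RNA, fewer cells of a type and less RNA per cell cannot be told apart.

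From day 3 to the day 4 GFP-negative cells 421 genes rose (2.00% of those tested) and 183 fell (0.871%), and the median log2-fold-change over all genes was -0.02. All 421 rising and all 183 falling genes had non-overlapping replicates, against 17.4% (all higher) and 18.0% (all lower) of all genes tested. The thresholds were applied to the same libraries, so this separation largely follows from the calls. The rises were the larger, with a median log2-fold-change of 2.47 and a highest of 7.96, against a median of -1.84 and an extreme of -3.76 for the falls. Many of the rising genes began low. Their median level went from 52.6 to 313 normalized counts, and 89 had a day 3 mean under 10, whereas the falling genes went from a median of 308 to 83.4. When each of the 6 libraries was left out in turn, 304 to 378 genes rose and 102 to 181 fell. The lowest count of falling genes came without day 4 GFP-negative replicate 3, with 105 without replicate 2 of that group and 110 without day 3 replicate 1.

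**Figure D1:**
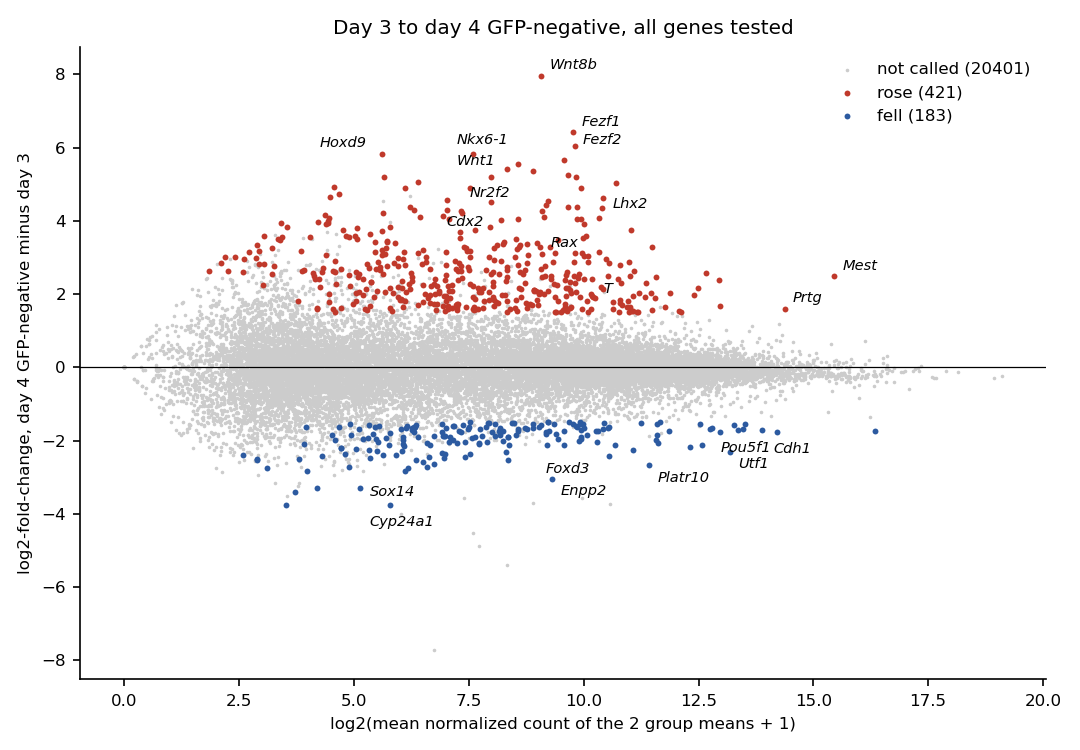
Change from day 3 to the day 4 GFP-negative cells for the 21005 genes tested, as log2-fold-change (vertical) against log2 of the mean of both group means + 1 (horizontal). The 421 rising genes are red and reach 7.96 (Wnt8b), the 183 falling genes are blue and reach -3.76 (Cyp24a1), and the remaining genes are grey.

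In the GFP-positive cells of the same day, compared with the same day 3 libraries, 700 genes rose (3.33%) and 1545 fell (7.36%). The genes that rose in the GFP-negative cells had a median log2-fold-change of 2.29 in the GFP-positive cells, and those that fell had one of -3.44. Because both comparisons share the day 3 libraries, the gates were compared directly: 763 genes were higher (3.63%) and 69 lower (0.328%) in GFP-negative than in GFP-positive cells of day 4. Since day 3 cancels, this direct difference is also the difference between the changes of the 2 gates from day 3.

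Wnt8b, a Wnt ligand of the dorsal forebrain and early diencephalon (chr19:44493472-44514273 in mm10, plus strand), was at 2.44, 2.28 and 5.7 on day 3 and at 865, 1077 and 1261 in the GFP-negative cells, a log2-fold-change of 7.96 ± 0.378 (limma adjusted p = 9.25e-12). Fezf1, a repressor that keeps forebrain from taking more caudal fates, went from 23.2, 26.1 and 11.4 to 1713, 1967 and 1499. Its paralog Fezf2 went from 22.4, 35.2 and 21.8 to 1682, 1827 and 1776. In each of these 3 genes the lowest GFP-negative library was far above the highest day 3 library, and the log2-fold-changes of Fezf1 and Fezf2 were 6.42 ± 0.444 and 6.04 ± 0.361. Of the 12 tested anterior forebrain genes 9 rose and none fell, with a median of 3.68, and all 12 had every GFP-negative library above every day 3 library, as 17.4% of all genes tested did. Emx2, of the dorsal forebrain, rose by 5.65 ± 0.660, Otx1 by 5.04 ± 0.330 and Lhx5 by 3.76 ± 0.239. Sp8, a zinc-finger factor of the rostral forebrain, rose by 3.59.

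The difference of this forebrain group between the gates was uneven. Its median was -0.997 on the log2 scale, 7 of the 12 members had every GFP-negative library below every GFP-positive library (17.8% of all genes did), and 10 of the 12 were not called. Lhx5 stood at 3777, 3838 and 4032 in the GFP-negative and at 4597, 3928 and 3756 in the GFP-positive libraries, which overlap. The difference of Emx2 was 0.11 ± 0.660 (SE) with an adjusted p of 0.952, which does not show that the gates were alike. The members called lower included an antisense transcript of Six3, whose reads cannot be told from those of Six3 because the strand setting of the counting is not stated. That call was lost without GFP-negative replicate 3 or GFP-positive replicate 3 (limma adjusted p up to 0.00153).

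Of 15 tested eye field genes 6 rose, none fell, and the median was 1.46. Lhx2, a homeobox gene required for the optic vesicle, went from 95.1, 186 and 110 to 2288, 3013 and 2431, whereas the GFP-positive libraries were at 16110, 16692 and 15182. Pax6, a regulator of eye and forebrain, went from 114, 162 and 150 to 2029, 2610 and 2627, against 8939, 7774 and 8838 in the GFP-positive libraries. The GFP-negative libraries lay between day 3 and the GFP-positive libraries without overlap for both genes. The log2-fold-changes from day 3 were 4.35 ± 0.296 for Lhx2, 4.09 ± 0.240 for Pax6, 3.11 ± 0.255 for Rax and 2.04 ± 0.250 for Six3. Against the GFP-positive gate 5 of 15 members were lower, with Rax at -3.29, Lhx2 at -2.64, Pax6 at -1.82 and Six3 at -1.77. The lower Rax follows from the sort, since the gates were set on GFP in its locus. Six6, a later eye field gene, had a log2-fold-change of 0.66 ± 0.455 from day 3 with an adjusted p of 0.376. The rise of Nr2e1 was lost in all 6 fits that left out a library (adjusted p up to 0.00819), so that 5 eye field genes rose in each of them.

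Of 25 tested genes of midbrain, hindbrain border and diencephalon 13 rose and none fell (median 2.26), and 14 were higher than in the GFP-positive gate. A single member was lower, a call lost in 5 of 6 fits that left out a library. En1, which marks the midbrain-hindbrain border (chr1:120602418-120607992, plus strand), was at 67.2, 50.04 and 72.1 on day 3, at 1469, 1967 and 2271 in the GFP-negative cells and at 71.6, 92.5 and 144 in the GFP-positive cells. The GFP-negative libraries of En1 lay above all others while day 3 and GFP-positive levels were close to each other. En1 rose by 4.89 ± 0.324 from day 3 (limma adjusted p = 1.13e-09) and was higher than in the GFP-positive gate by 4.23 ± 0.324 (adjusted p = 6.93e-09). Gbx2, a hindbrain-side border gene, went from 68.7, 77.7 and 59.2 to 468, 604 and 488, and its GFP-positive libraries, at 12.8, 30.8 and 38.5, were below day 3. Wnt1, the border's Wnt ligand, went from 14.7, 10.2 and 16.1 to 491, 578 and 818 and was at 22.8, 49.5 and 67.0 in the GFP-positive cells.

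Lmx1a, a roof plate and midbrain floor regulator, rose by 4.11 ± 0.521. En2, Irx3 and Fgf8 did not pass the threshold from day 3, but each was higher in the GFP-negative than in the GFP-positive gate, by 3.73 ± 0.191, 3.32 ± 0.260 and 3.63 ± 0.303. Pax2, which is also an optic stalk gene, rose by 4.37 ± 0.373, and its difference between gates was -0.90 with an adjusted p of 0.122. The difference between gates of Wnt1, 3.83 ± 0.649, missed the threshold in 3 of 6 fits that left out a library (adjusted p up to 0.00232), and that of Wnt8b, 1.96 ± 0.378, in 5 of them. The count of 13 rising genes of this list fell to 8 without day 3 replicate 3 or without day 4 GFP-negative replicate 2 or replicate 3.

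**Figure D2:**
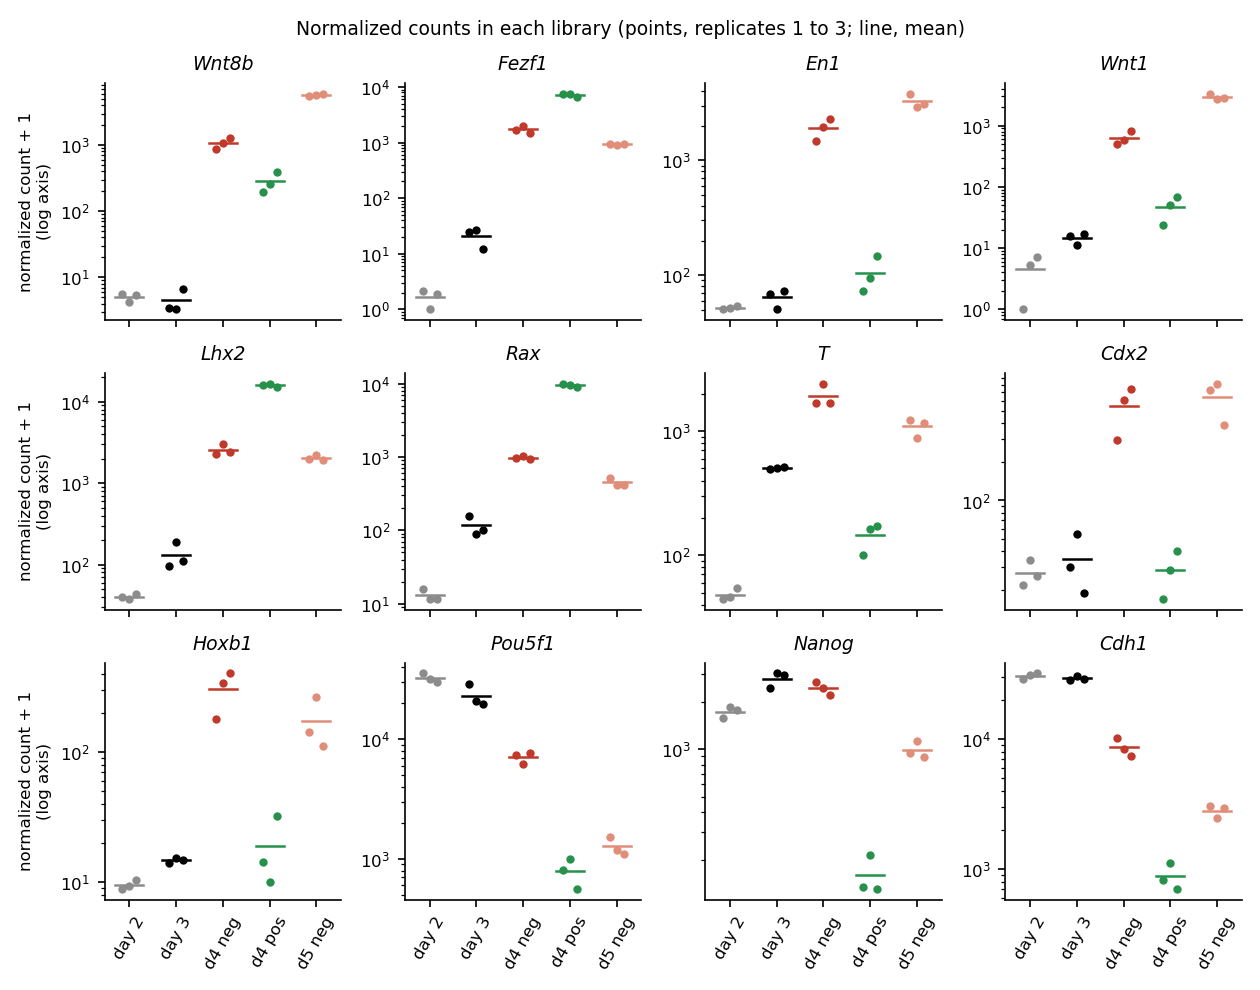
Normalized counts + 1 on log axes for 12 genes in each library of day 2, day 3, day 4 GFP-negative (d4 neg), day 4 GFP-positive (d4 pos) and day 5 GFP-negative cells (d5 neg). Points are the 3 replicates and lines their means. En1 and Wnt1 are high in the GFP-negative groups, Rax and Lhx2 in the GFP-positive group, and Nanog stays near its day 3 level in the day 4 GFP-negative libraries.

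In all 6 of 20 pan-neural genes rose and none fell (median 0.80). Sox2, a pluripotency and neural progenitor factor, was at 7772, 10300 and 9726 on day 3 and at 9581, 8752 and 6588 in the GFP-negative cells, which overlap, with a log2-fold-change of -0.17 and an adjusted p of 0.485. Sox1, the earliest exclusively neural Sox gene, went from 126, 146 and 110 to 1968, 2076 and 1781. Sox21 went from 77.0, 79.9 and 62.8 to 1367, 1483 and 1768. These SoxB genes rose by 3.92 ± 0.363 and 4.38 ± 0.165, and Hes3, a repressor of neural differentiation, by 5.56 ± 0.284. Tubb3, a neuronal tubulin, had a log2-fold-change of 0.48 and Dcx, of migrating neurons, one of -1.14 with an adjusted p of 0.216. Neurog2 and Isl1 were the 2 of 20 neuronal genes that rose, and without day 3 replicate 1 or day 4 GFP-negative replicate 2 none of the list rose.

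Further regulators were among the 12 largest rises. Nkx6-1, a ventral neural tube factor, went from 4.89, 4.56 and 7.60 to 283, 362 and 488, by 5.82 ± 0.296, and was higher than in the GFP-positive gate by 1.93. Zfp503, a zinc-finger repressor, rose by 5.20 ± 0.295. Nr2f2, a nuclear receptor of several tissues, rose by 5.21 ± 0.380 and was lower than in the GFP-positive gate by 2.39 on the log2 scale (-2.39 ± 0.380).

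Of 39 genes of the Hox clusters 28 passed the filter and 7 rose, none fell, and the median was 2.73. In 21 of the 28 all GFP-negative libraries were above all day 3 libraries, the pattern of 17.4% of all genes. Hoxb1, of hindbrain and early streak, went from 13.2, 14.5 and 13.9 to 177, 334 and 400, while the GFP-positive libraries were at 13.4, 8.98 and 31.3. Hoxb9, a trunk Hox gene, went from 10.4, 9.69 and 10.1 to 35.8, 126 and 85.2. Hoxd9 was listed at 0 in 2 day 3 libraries and at 1.89 in the third and stood at 32.0, 116 and 139 in the GFP-negative cells. For each of these 3 genes GFP-negative replicate 1 was the lowest of its group and was still above day 3. The adjusted p was 4.70e-05 for Hoxb1, 2.11e-05 for Hoxb9 and 3.26e-05 for Hoxd9.

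In the GFP-positive cells no Hox gene rose or fell by limma (median 0.04). Of the 28, 4 had an unadjusted p under 0.05, a share that was not taken over all genes for this comparison. Compared directly, 8 of 28 were higher in the GFP-negative gate. Of these, Hoxb1 by 4.11 ± 0.633 and Hoxb9 by 3.22 ± 0.379 were called in all fits that left out a library. That count of 8 was 2 without GFP-negative replicate 2 or GFP-positive replicate 1, 3 without GFP-negative replicate 3 and 4 without GFP-positive replicate 2. The summed level of the 28 genes was 113, 118 and 98.9 on day 3, 671, 1489 and 1450 in the GFP-negative libraries and 44.0, 83.2 and 137 in the GFP-positive libraries. The number of rising Hox genes moved between 3, without GFP-negative replicate 2, and 8, without replicate 1, and was 4 without day 3 replicate 1. Cdx2, which activates trunk Hox genes, went from 29.3, 53.4 and 18.0 to 299, 610 and 739 and did not overlap with day 3 or with the GFP-positive libraries at 15.9, 27.5 and 39.5. It rose by 4.03 ± 0.454 (limma adjusted p = 1.79e-06).

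**Figure D3:**
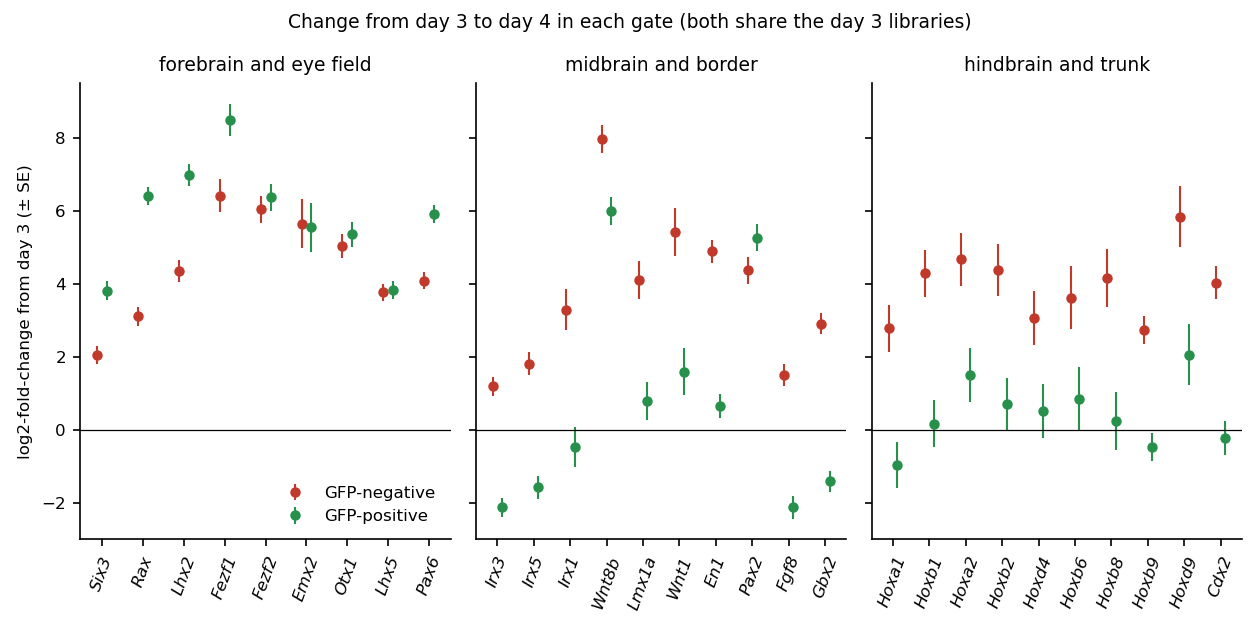
Log2-fold-change from day 3 (± SE) in the GFP-negative (red) and GFP-positive cells (green) of day 4 for genes in 3 panels, grouped by the part of the neural axis they are known to mark. Green lies above red for eye field genes such as Rax (6.40 against 3.11), on whose locus the gates were sorted. Red lies above green for border genes such as En1 (4.89 against 0.65) and for the Hox genes. Both changes use the same day 3 libraries.

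Of 18 tested primitive streak genes 10 rose and none fell (median 2.04), and all 18 had every GFP-negative library above every day 3 library, against 17.4% of all genes tested. T, the T-box factor of the streak (chr17:8434423-8442496, plus strand), was at 495, 508 and 512 on day 3, at 1672, 2414 and 1689 in the GFP-negative cells and at 98.8, 163 and 172 in the GFP-positive cells. The 3 groups of T were separate, with the GFP-positive cells lowest. T rose by 1.91 ± 0.287 from day 3 (adjusted p = 5.91e-05) and fell by 1.84 on the log2 scale in the GFP-positive cells. Wnt3a, a ligand that maintains the caudal streak, went from 17.1, 13.7 and 11.4 to 185, 238 and 330. Msgn1, a target of Wnt3a in presomitic mesoderm, went from 4.83, 19.6 and 1.83 to 85.7, 104 and 108. Sp5, a direct Wnt target, went from 305, 226 and 183 to 1446, 2135 and 2267.

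None of Wnt3a, Msgn1 and Sp5 overlapped between day 3 and the GFP-negative cells, and their log2-fold-changes were 4.04 ± 0.507, 3.83 ± 0.595 and 3.04 ± 0.442. Tbx6, of paraxial mesoderm, rose by 1.91 ± 0.266. Eomes, an early streak and endoderm T-box gene, was already at 1950, 2128 and 2236 on day 3 and was at 2964, 4243 and 4146 in the GFP-negative cells, without passing the test (0.83 ± 0.294, adjusted p = 0.0543). Mixl1, of early mesendoderm, had 1.55 ± 0.456 with an adjusted p of 0.0199. Compared with the GFP-positive gate 15 of the 18 were higher, with Eomes at 4.23 ± 0.294, Mixl1 at 4.54 and Sp5 at 3.80 ± 0.442. Leaving out a library gave 7 to 9 rising members, with 7 without GFP-negative replicate 3. The calls of Lhx1, Mesp1 and Evx1 were lost in 6, 5 and 1 of these fits, with adjusted p up to 0.00698, 0.00758 and 0.00120.

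Of 15 tested Wnt feedback genes 6 rose and none fell (median 1.66), in every fit that left out a library, although T and Sp5 stand in both lists. Axin2, a negative feedback gene of canonical Wnt signalling, went from 1164, 1074 and 982 to 3510, 4125 and 4693 and was at 1081, 1206 and 1615 in the GFP-positive cells. Only the GFP-negative libraries of Axin2 stood apart from the rest, by 1.93 ± 0.208 from day 3 and 1.67 ± 0.208 from the GFP-positive gate. Dkk1, a secreted Wnt inhibitor, rose by 4.05 ± 0.191, Apcdd1 by 2.60 ± 0.225 and Nkd1 by 2.50 ± 0.192. Dkk1 was not called different between the gates (0.91, adjusted p = 0.00173).

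The promoters of the streak genes that rose were read for the LEF/TCF motif, the letters bound by the nuclear effectors of Wnt signalling, because Wnt targets were among them. Windows of 250 bases upstream of the RefSeq start (GRCm38.p6) were searched on both strands for CTTTGAT. They are shown for Sp5, Msgn1 and Mesp1, the 3 of the 10 rising streak genes whose window held it, in the 5′ to 3′ direction of the gene with the motif in capitals. The Sp5 window is chr2:70474673-70474922 on the plus strand with the match starting at -104. The Msgn1 window is chr12:11208949-11209198 on the minus strand, with the reverse complement ATCAAAG at -203. The Mesp1 window is chr7:79793591-79793840 on the minus strand with the match at -31, and its RefSeq start lies 198 bases from the start in the deposited table.
Sp5: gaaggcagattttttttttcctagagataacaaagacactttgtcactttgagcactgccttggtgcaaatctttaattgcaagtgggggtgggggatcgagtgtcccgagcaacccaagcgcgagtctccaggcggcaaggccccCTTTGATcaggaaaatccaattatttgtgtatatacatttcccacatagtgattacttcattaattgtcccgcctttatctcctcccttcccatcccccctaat
Msgn1: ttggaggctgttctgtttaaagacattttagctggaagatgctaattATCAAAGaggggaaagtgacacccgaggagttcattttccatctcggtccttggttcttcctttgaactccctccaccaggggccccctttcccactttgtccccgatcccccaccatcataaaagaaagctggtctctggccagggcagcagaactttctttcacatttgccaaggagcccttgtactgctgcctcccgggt
Mesp1: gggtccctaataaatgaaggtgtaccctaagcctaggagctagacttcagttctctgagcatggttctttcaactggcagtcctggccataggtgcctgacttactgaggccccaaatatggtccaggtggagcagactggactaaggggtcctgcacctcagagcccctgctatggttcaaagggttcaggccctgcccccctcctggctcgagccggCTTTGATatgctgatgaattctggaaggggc

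The motif was in 4.05% of 296 rising and 4.26% of 141 falling genes with a promoter sequence, against 2.43% of 14007 tested genes. Its absence from the windows of T, Axin2 and Dkk1 says only that these letters are not in those 250 bases. The octamer ATTTGCA was in 5.07% of rising, 3.55% of falling and 2.67% of all promoters, and the ETS letters CCGGAAG in 3.72%, 4.26% and 11.7%. The T-box letters GGTGTGA were in 1.35%, 5.67% and 3.03%, the homeobox letters TAATTA in 4.73%, 4.96% and 2.86%, and the GATA letters AGATAA in 8.11%, 4.26% and 6.71%. The AP-1 letters TGANTCA were in 6.08%, 7.09% and 4.53% and the hypoxia response letters ACGTGC in 5.41%, 7.09% and 6.39%. The GATA and octamer letters also occur in the Sp5 window and the homeobox letters in the Msgn1 window.

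Of 15 paraxial and other mesoderm genes 7 rose and none fell (median 1.67). Foxc1, a forkhead factor of paraxial mesoderm, went from 18.3, 26.3 and 20.01 to 229, 377 and 278 and was at 7.95, 22.9 and 21.5 in the GFP-positive cells, so that the GFP-negative libraries alone were high. Pax3, of dermomyotome, dorsal neural tube and crest, rose by 3.84 ± 0.304. Aldh1a2, the main embryonic retinoic acid synthase, rose by 5.35 ± 0.420 but also by 6.49 in the GFP-positive cells, and was not called different between gates (-1.13, adjusted p = 0.0766). Meox1 and Tcf15, markers of formed somites, did not rise. Meox1 had a log2-fold-change of -0.01 and Tcf15 one of -1.25 with an adjusted p of 0.00110.

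Kdr, a receptor of lateral mesoderm and endothelial precursors, went from 123, 150 and 131 to 519, 1074 and 1401 (2.77 ± 0.408). It was the 1 member that rose of 23 tested endothelial and blood genes, whose median was -0.36 and of which 1, the claudin Cldn5, fell, a call lost in all 6 fits without 1 library (adjusted p up to 0.00917). Without day 3 replicate 1 or GFP-negative replicate 1, 2 members rose. The defining endothelial and blood genes Cdh5 and Tal1 had log2-fold-changes of 0.17 and -0.31. Of 15 cardiac and lateral mesoderm genes 4 rose (median 1.00), among them Foxf1 and Hand2. Foxf1 went from 9.77, 11.4 and 15.2 to 78.6, 304 and 554, with GFP-negative replicates 2 and 3 far above replicate 1, and its call was lost without replicate 2 or replicate 3 (adjusted p up to 0.00149). None of the 4 was called without GFP-negative replicate 2, and 1 was without GFP-negative replicate 3 or day 3 replicate 1. Nkx2-5, a heart marker, stayed under 8 normalized counts in every library of both groups.

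Of 12 tested definitive endoderm genes 2 rose and 1, Epcam, which is also an epithelial junction gene, fell (median 1.35), and in 7 of them all GFP-negative libraries were above all day 3 libraries, as in 17.4% of all genes tested. The summed level of the list was 23960, 21030 and 20550 on day 3 and 12750, 14370 and 17240 in the GFP-negative libraries, and this difference came from Epcam. Without it the sums overlapped, at 11520, 8586 and 8053 on day 3 and 8739, 10970 and 13680 in the GFP-negative libraries. Sox17, of endoderm, was at 219, 143 and 57.7 on day 3 and at 375, 559 and 598 in the GFP-negative cells, with no overlap (2.03, adjusted p = 0.00223). Foxa2, of endoderm and axial mesoderm, was at 189, 153 and 128 and at 510, 509 and 463 (1.67, adjusted p = 0.00146). Against the GFP-positive gate 7 of 12 members were higher, with Sox17 at 3.95 ± 0.440, Foxa2 at 3.95 ± 0.346 and Gata6 at 3.90 ± 0.327. Cxcr4, a chemokine receptor of endoderm and other migrating cells, rose by 3.48 ± 0.188. Of 15 extra-embryonic endoderm genes only Pdgfra rose (median 0.26). Afp, its best known product, did not pass the test (0.12, adjusted p = 0.964).

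Of 20 tested crest genes 11 rose and 1 fell (median 1.79). Msx1, a BMP-responsive border gene, went from 339, 239 and 207 to 717, 1413 and 2094 and was at 117, 177 and 229 in the GFP-positive cells. Pax7, of dorsal neural tube and crest, went from 19.5, 27.8 and 31.6 to 259, 412 and 441. For both genes the GFP-negative libraries were above all day 3 libraries, and they rose by 2.32 ± 0.334 and 3.76 ± 0.305. Sox9 rose by 2.04 ± 0.253 and Sox10, which marks migrating crest, by 2.78 ± 0.398, and neither was called different between the gates (adjusted p = 0.242 and 0.332). Foxd3, a crest gene that is also a pluripotency gene, was the 1 that fell. Snai1 was at 424, 407 and 327 on day 3 and 694, 1178 and 1085 in the GFP-negative cells, with a log2-fold-change of 1.32 that missed the threshold on size. Of 20 surface ectoderm genes 3 rose (median 0.20), with Tfap2a at 2.05 ± 0.282 and Tfap2b at 4.91 ± 0.754, which are both also counted in the crest list. A fall was called for 2, and for none of them without GFP-negative replicate 2 or replicate 3. The keratins Krt8 and Krt18 had log2-fold-changes of 0.37 and -0.35.

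**Figure D4:**
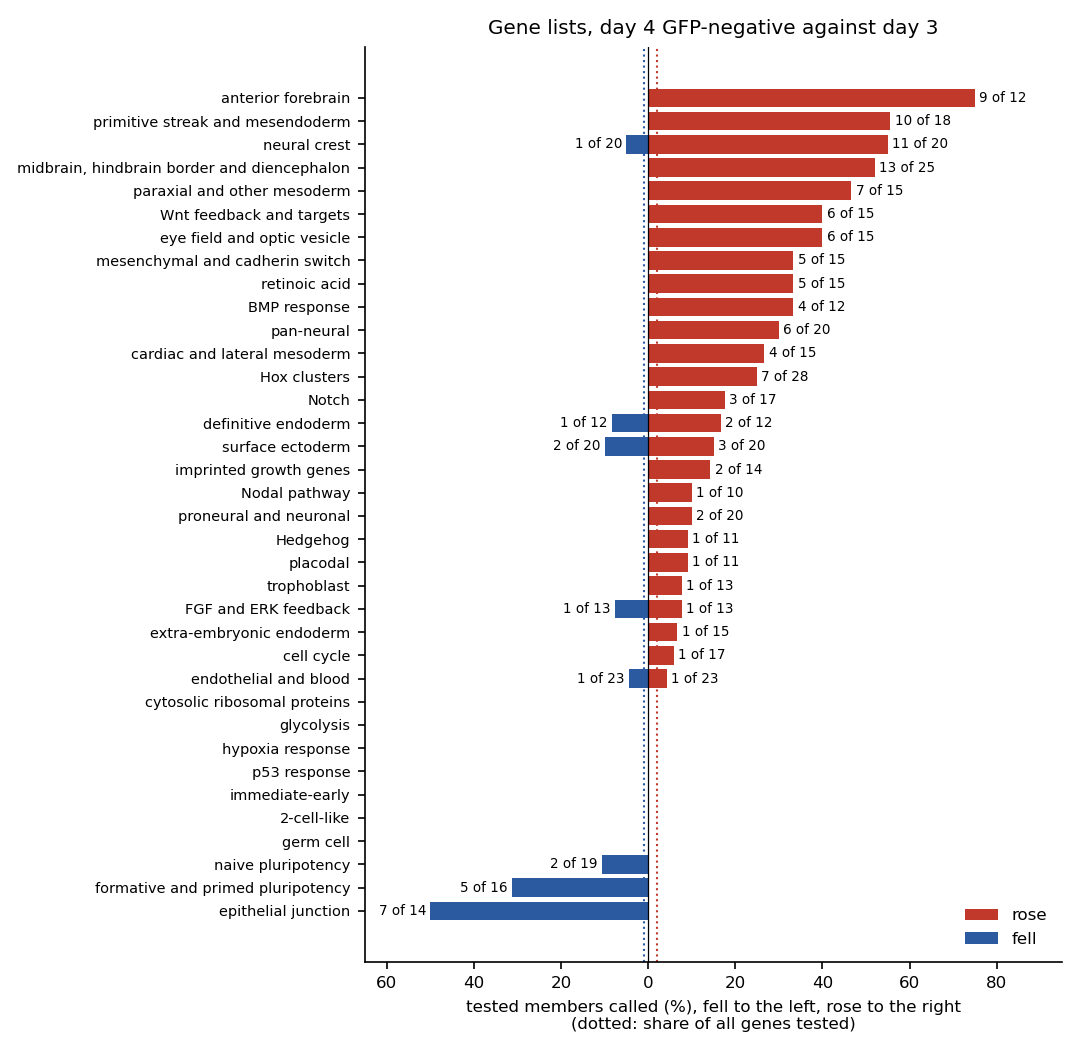
Share of the tested members of 36 gene lists that rose (red, right) or fell (blue, left) from day 3 to the day 4 GFP-negative cells, in percent, with the number of members beside each bar. Dotted lines mark the shares over all genes, 2.00% rising and 0.871% falling. The anterior forebrain (9 of 12), streak (10 of 18) and crest lists (11 of 20) reach farthest right and the epithelial junction list (7 of 14) farthest left.

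Of 16 tested formative and primed genes 5 fell and none rose (median -0.97). Pou5f1, the core pluripotency factor, was at 28985, 20854 and 19799 on day 3, at 7450, 6176 and 7636 in the GFP-negative cells and at 811, 1005 and 560 in the GFP-positive cells. Its 3 groups were separate, and it fell by 1.70 on the log2 scale (-1.70 ± 0.179, adjusted p = 7.98e-07) in the GFP-negative cells against 4.89 in the GFP-positive cells. Utf1, a chromatin-bound embryonic stem cell factor, went from 18760, 14530 and 12893 to 3661, 2666 and 2996 (-2.30 ± 0.259). Foxd3 went from 2680, 2498 and 2351 to 524, 473 and 407 (-2.43 ± 0.319). Dnmt3b, the de novo DNA methyltransferase, went from 141442, 123445 and 119697 to 43398, 34664 and 37436 (-1.74 ± 0.291), a call lost in 4 of the 6 fits without 1 library (adjusted p up to 0.00178). Otx2, a formative factor that is kept in anterior neural tissue, had a log2-fold-change of -0.14 and an adjusted p of 0.366.

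Of 19 naive pluripotency genes 2 fell, Dppa4 by 2.05 and Fgf4 by 1.84 on the log2 scale, in every fit without 1 library, and the median was -0.98. In 16 of the 19 all GFP-negative libraries were below all day 3 libraries, against 18.0% of all genes tested. Nanog, a pluripotency homeobox factor, was at 2432, 3013 and 2952 on day 3 and 2663, 2449 and 2190 in the GFP-negative cells, and these groups overlapped (-0.20 ± 0.196, adjusted p = 0.568). In the GFP-positive cells all 19 fell (median -4.35), with Nanog at 133, 214 and 130. The direct comparison of the gates called all 19 higher in the GFP-negative cells, Nanog by 3.96 ± 0.196 (adjusted p = 1.50e-11), and 17 to 19 without 1 library. The summed level of the list was 32220, 31730 and 30840 on day 3, 16530, 15040 and 15250 in the GFP-negative libraries and 1206, 2763 and 1397 in the GFP-positive libraries. By limma no gene of the germ cell or 2-cell-like lists rose or fell (11 tested in each, medians -0.46 and -0.57). Among them 5 and 0 had an unadjusted p under 0.05, against 29.7% of all genes tested.

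Of 14 tested epithelial junction genes 7 fell and none rose (median -1.58), and all 14 had every GFP-negative library below every day 3 library, against 18.0% of all genes tested. Epcam, an epithelial adhesion molecule, was at 12441, 12448 and 12492 on day 3, at 4013, 3397 and 3561 in the GFP-negative cells and at 556, 652 and 544 in the GFP-positive cells. Cldn7, a tight junction claudin, went from 2350, 1979 and 1915 to 678, 592 and 652. Both fell without overlap in each fit, by 1.77 and 1.70 on the log2 scale. Cdh1 (E-cadherin) went from 28483, 30552 and 29310 to 10202, 8394 and 7499 (-1.77 ± 0.288, adjusted p = 0.000138), a call lost without day 3 replicate 2 or without GFP-negative replicate 2 or replicate 3 (adjusted p up to 0.00139). The number of falling members was 4 without day 3 replicate 1 or without GFP-negative replicate 2 or replicate 3. In the GFP-positive cells 12 of 14 fell (median -4.08), and 9 were higher in the GFP-negative gate, Epcam by 2.65 ± 0.116.

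Cdh2 (N-cadherin) went in the other direction, from 1778, 2291 and 2173 to 8153, 10339 and 9573, while the GFP-positive libraries were at 14153, 15772 and 15679. The 3 groups of Cdh2 did not overlap, and it rose by 2.17 ± 0.173 (adjusted p = 1.53e-08). Of 15 mesenchymal and cadherin switch genes 5 rose and none fell (median 1.25), with Cdh11 at 3.16 ± 0.432 and Zeb1, a repressor of Cdh1, at 2.10 ± 0.209. The call of Zeb2 was lost in each fit without 1 library (adjusted p up to 0.0019). Vim and Fn1 had log2-fold-changes of 0.34 and 0.88, under the threshold.

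Of 17 Notch genes 3 rose (median 0.77), the ligands Dll1 and Jag1 by 1.95 ± 0.130 and 2.13 ± 0.218 and the modifier Lfng by 2.42 ± 0.156, and these 3 were not called different between the gates. Without GFP-negative replicate 1, 5 Notch genes rose. Of 15 retinoic acid genes 5 rose (median 1.28), including Meis1 and Meis2 by 2.40 ± 0.268 and 2.09 ± 0.229, and 3 did without day 3 replicate 3 or GFP-negative replicate 3. Of 12 BMP genes 4 rose (median 0.96), among them Bmper, an extracellular BMP modulator, which went from 69.9, 71.2 and 44.2 to 236, 291 and 387 and was at 55.4, 56.5 and 83.0 in the GFP-positive cells. Its GFP-negative libraries were separate from day 3, by 2.29 ± 0.308, and from the GFP-positive gate, by 2.21.

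Nodal, a ligand of the streak and of pluripotent cells, was at 525, 429 and 394 on day 3, at 355, 420 and 443 in the GFP-negative cells and at 19.3, 47.6 and 23.2 in the GFP-positive cells, so that only the last group stood apart. Lefty2, the feedback inhibitor of Nodal, had a log2-fold-change of 0.32 with an adjusted p of 0.600. The summed level of the Nodal pathway list was 11160, 9874 and 9899 on day 3 and lower in each GFP-negative library, at 7394, 8675 and 9250. Of its 10 tested genes 1 rose and none fell (median -0.22), and none rose without day 3 replicate 1 or GFP-negative replicate 3, while 7 were higher in the GFP-negative gate, Nodal by 3.82 ± 0.286 (adjusted p = 5.33e-09). Of 13 FGF and ERK feedback genes 1 rose and 1 fell, and 7 were higher in the GFP-negative gate. The rise was of the ligand Fgf17, and the call was lost without day 3 replicate 2 or 3 or without GFP-negative replicate 2 or 3 (adjusted p up to 0.00447). Etv5, an ERK-induced transcription factor, was the one that fell, by 1.58 on the log2 scale.

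Genes outside the lists made up most of the calls: 99 of the 421 rising and 15 of the 183 falling genes were in any of the 36 lists. Of 14 tested imprinted growth genes 2, Mest and Igf2, rose and none fell (median 0.95), in each fit without 1 library. Mest, which was also among the risers with the highest day 4 GFP-negative mean, went from 11390, 14802 and 14273 to 66141, 79197 and 81896 and was at 225485, 239639 and 228527 in the GFP-positive cells. Of genes outside the lists, Irs4, an insulin receptor substrate, went from 1489, 2118 and 2011 to 12342, 11965 and 9013. Prtg, a cell surface protein of early neural and mesodermal tissue, went from 9214, 11314 and 11161 to 29940, 31288 and 34649. All 3 were separate from day 3, by 2.49 ± 0.171, 2.57 ± 0.183 and 1.601 ± 0.202, and Mest was lower than in the GFP-positive gate by 1.62 on the log2 scale (-1.62 ± 0.171).

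The largest fall among the genes named by rule was that of Cyp24a1. This gene, which encodes the vitamin D hydroxylase, went from 108, 108 and 87.5 to 9.15, 8.13 and 3.52 (-3.76 ± 0.420, adjusted p = 1.62e-06). Enpp2 (autotaxin), which makes lysophosphatidic acid, went from 989, 1164 and 1257 to 146, 138 and 128 (-3.04 ± 0.415). Platr10, a non-coding transcript of pluripotent cells, went from 4384, 4885 and 4922 to 902, 644 and 692 (-2.68 ± 0.330). These were fully separate from day 3, and Platr10 and Enpp2 were still higher than in the GFP-positive gate, by 3.70 and 2.83. Sox14 fell by 3.30, Rab19, a small GTPase, by 2.83, Galr2, a galanin receptor, by 2.74, Grp, a neuropeptide, by 2.71 and Capn3, a calpain protease, by 2.65 on the log2 scale.

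Lists of cell stress and metabolism held no calls by limma. No gene of the immediate-early (17 tested), p53 response (16), hypoxia response (17) and glycolysis lists (12) or of 88 cytosolic ribosomal protein genes rose or fell, with medians of 0.08, -0.22, 0.26, -0.20 and -0.23. In the same order 6, 4, 8, 4 and 4 members had an unadjusted p under 0.05, against 29.7% of all genes. Of 17 cell cycle genes only Ccnd2 rose (median -0.02), a call lost in 5 of the 6 fits without 1 library (adjusted p up to 0.00346). Of 11 Hedgehog genes Nkx6-1 alone rose and of 13 trophoblast genes Cdx2 alone, and no other gene of these lists was called from day 3. The summed level of the trophoblast list was 12830, 17000 and 16700 on day 3, 25960, 36510 and 38400 in the GFP-negative and 12320, 16190 and 16570 in the GFP-positive libraries. Most of this sum was Peg10, an imprinted gene, and without it the sums were 3782, 3477 and 3443, then 4503, 6736 and 8142, and 418.9, 577.4 and 772.9. Of the 13 genes 8 were higher in the GFP-negative than in the GFP-positive gate, or 5 without GFP-negative replicate 1 or 3 or GFP-positive replicate 2.

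The 3 GFP-negative libraries were not equal in the caudal and mesodermal genes. Replicate 1 was the lowest of the 3 for 26 of 28 Hox genes, with a median of -1.40 on the log2 scale against the mean of the other 2 libraries, for 16 of 18 streak genes (-0.57), 13 of 15 extra-embryonic endoderm genes (-0.65), 12 of 15 paraxial genes (-0.53) and 15 of 20 crest genes (-0.55). It was lowest for 21 of 25 midbrain and border genes, by a median of -0.34. For anterior forebrain genes its median was -0.08 and for eye field genes -0.16, and in naive pluripotency and epithelial junction genes it was above the others by 0.20 and 0.26. Without this replicate 378 genes rose and 181 fell, 9 of 18 streak genes rose, 8 of 28 Hox genes and 12 of 25 midbrain and border genes. Its part in the spread of single genes was not tested.

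**Figure D5:**
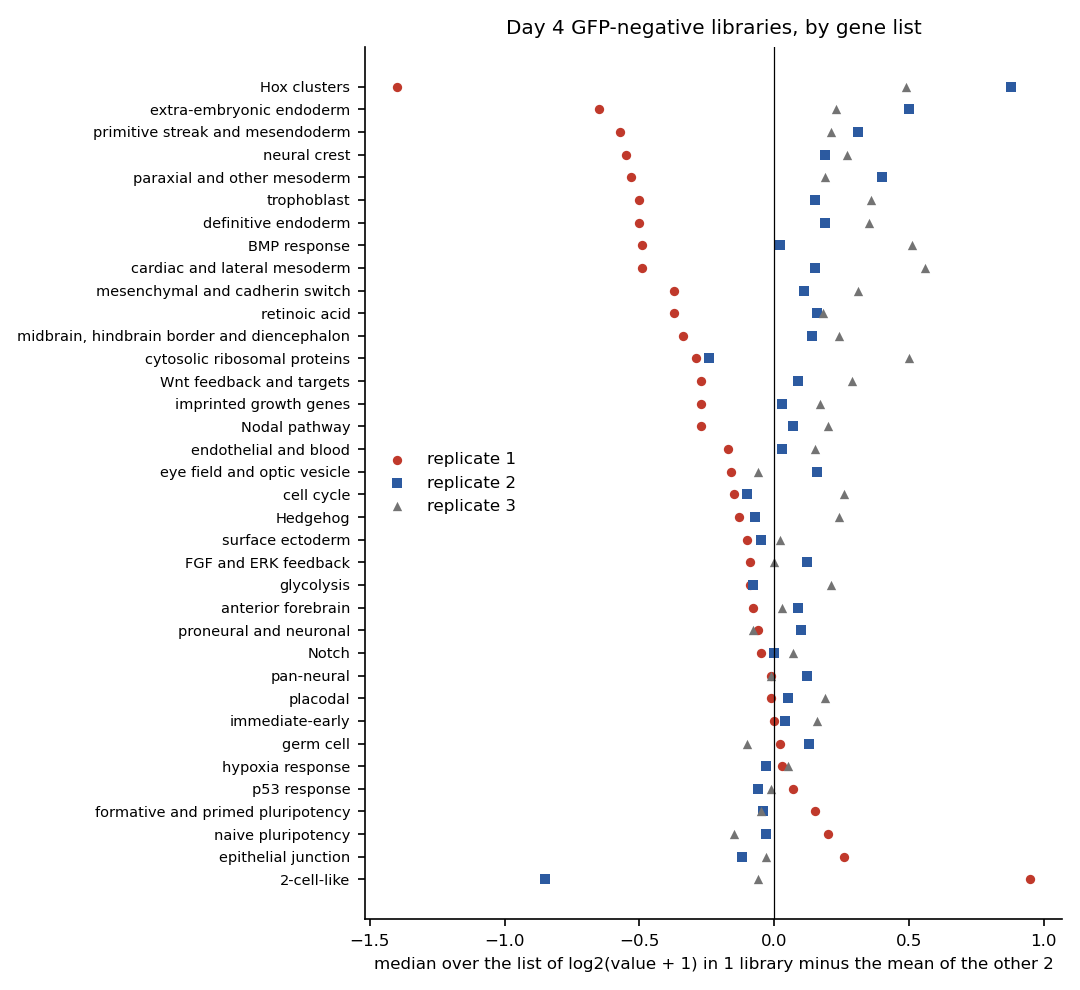
Median over each gene list of log2(normalized count + 1) in 1 day 4 GFP-negative library minus the mean of the other 2, for replicates 1 (red circles), 2 (blue squares) and 3 (grey triangles). Replicate 1 lies farthest left for the Hox list (-1.40) and near 0 for the anterior forebrain list (-0.08).

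From day 4 to day 5 the GFP-negative cells changed further, 160 genes rising (0.762%) and 107 falling (0.509%). This step shares the day 4 GFP-negative libraries with the one from day 3. The 160 became 85 without day 5 replicate 1 or replicate 3, 89 without day 5 replicate 2 or day 4 replicate 1 and 101 without day 4 replicate 2, and the 107 became 71 without day 4 replicate 1 or day 5 replicate 2. None of the 18 streak genes rose and 4 fell (median -1.29), or 2 without day 4 replicate 2, of which Msgn1, which went from 85.7, 104 and 108 to 2.93, 5.42 and 4.04, and Eomes, from 2964, 4243 and 4146 to 629, 921 and 975, did so in each fit without 1 library. Both were below their day 4 libraries without overlap, by 4.31 and 2.18 on the log2 scale. Pou5f1 fell by a further 2.48 and Fgf5, a formative gene, by 2.85. By limma no naive pluripotency and no Hox gene was called in this step, and 6 of 19 and 10 of 28 had an unadjusted p under 0.05. The share of all genes under 0.05 in this step was not taken, so these counts are given as values only.

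Of 20 pan-neural genes 4 rose and none fell from day 4 to day 5, and 3 or 4 rose without 1 library, with 1 falling without day 5 replicate 1. Of 20 proneural and neuronal genes 1 rose and 1, the neuronal RNA-binding protein gene Elavl3, fell (median 0.09), and without day 4 replicate 2 or day 5 replicate 1 none fell. Zic1, of the dorsal neural tube, went from 180, 343 and 164 to 5252, 5355 and 4902 (4.57 ± 0.475), after a rise of 3.16 ± 0.475 from day 3. Pou3f2, a neural POU factor, rose by 3.61. Of 23 endothelial and blood genes 7 rose, which became 3 without day 4 replicate 1, 5 without day 4 replicate 3 and 4 without any other library of the 2 groups. Tal1, a regulator of blood formation, was at 29.4, 40.3 and 49.7 on day 4 and 309, 379 and 278 on day 5 (3.00 ± 0.374). Sox18 and Tie1, of endothelium, rose by 3.20 ± 0.336 and 2.61 ± 0.271. Foxd4, a forkhead gene that had risen by 2.42 from day 3, fell by 2.51.

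Day 5 GFP-negative was also compared with day 2, which shares no group mean with day 3 or day 4, although all 24 libraries set the filter and the spread of the common fit. Here 1805 genes rose (8.59%) and 1494 fell (7.11%). Of the 421 genes that rose from day 3 to day 4, 401 rose there too, which is 95.2% of the first list and 22.2% of the second. Of the 183 that fell, 175 fell there, 95.6% of the first and 11.7% of the second. The sign was the same for 419 of 421 and 182 of 183 genes, against 48.9% and 51.1% of all genes with a positive and a negative sign, and no gene was called in the opposite direction. The median log2-fold-changes of the lists were 3.91 and -3.28 over this longer interval.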

How the data were processed

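PolyA RNA of sorted live cells was sequenced in 24 libraries, 8 groups of 3 replicates, of which day 3 and day 4 GFP-negative are the subject here. The authors pseudoaligned the reads with kallisto 0.43.1 to mm10 Ensembl transcripts and deposited a DESeq2-normalized signal per gene (counts divided by size factors, with no correction for length). Columns with the authors' own gene calls were not used. Levels are therefore compared between libraries and not between genes. Strandedness is not given in the sources used here.

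Values were fitted as log2(value + 1) with limma 3.58.1 (R 4.3.3, lmFit and eBayes with trend) over all 24 libraries, after requiring a value of at least 10 in at least 3 libraries (21005 genes, 16 residual degrees of freedom). A gene was called at a Benjamini-Hochberg adjusted p below 0.001 if its log2-fold-change also exceeded 1.5 in size. Data were simulated over these 21005 genes with normal noise of the same spread for a gene in every group. Changes were planted only in genes with a day 3 level above 50 normalized counts. For day 4 GFP-negative against day 3 the fit recovered 89 of 100 genes planted at a log2 change of 2 and 96 of 100 planted at 3, with 0 false calls. Recovery of genes with a lower day 3 level, as many rising genes had, was not tested. Pseudocounts, filters, scalings, thresholds, libraries left out and a replicate block were alternatives. Figures used matplotlib 3.10.9 and promoter windows came from RefSeq.

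The members and gene lists were chosen with earlier results of these data known. Genes named were Rax, the 12 largest rises and 12 largest falls among called genes without overlap whose higher group mean was at least 50 (leaving out predicted, antisense and pseudogene symbols), the 5 called rises with the highest day 4 GFP-negative mean, up to 5 called and 3 not called members of each list, and the 6 largest differences each way between the gates and from day 4 to day 5. Not all of these are printed, and some are not reported here. Any further list member that is printed was chosen after its values were seen.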

Additional observations from a re-analysis of the deposited data

Results flagged for a closer look

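In 5 genes the GFP-negative and GFP-positive cells of day 4 were called in opposite directions from day 3. The difference between the changes is given as the direct difference between the gates (limma, Benjamini-Hochberg adjusted), and the changes share the day 3 libraries. Because the genes were chosen by their opposite calls, a large difference follows from that choice, and its adjusted p is no further test. Fzd10, a Wnt receptor, went from 192, 203 and 162 on day 3 to 827, 1163 and 1177 in the GFP-negative and 40.9, 66.9 and 97.0 in the GFP-positive cells, a difference of 4.00 ± 0.228 (adjusted p = 9.32e-11). Tnfrsf19, a Wnt-responsive receptor, went from 1070, 1192 and 1099 to 3983, 4759 and 4991 and to 221, 263 and 424, a difference of 3.97 ± 0.171 (adjusted p = 4.81e-12). In both genes the 3 groups were separate. T had a difference of 3.75 ± 0.287 (adjusted p = 6.93e-09). Dmbx1, a midbrain homeobox gene, went from 52.3, 55.3 and 46.3 to 166, 182 and 263 and to 13.8, 12.1 and 23.5, a difference of 3.58 ± 0.309 (adjusted p = 3.52e-08). Irx5 had a difference of 3.40 ± 0.325 (adjusted p = 1.43e-07), but its rise in the GFP-negative cells was called in only 1 of the 6 fits without 1 library.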

How the results depend on the processing

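No named gene that was called changed sign under the alternatives run. With an adjusted p under 0.05 and a log2 change above 1, 1070 genes rose and 945 fell from day 3, 1700 were higher and 325 lower than in the GFP-positive gate, 608 rose and 433 fell to day 5, and 3386 rose and 2965 fell from day 2 to day 5. With limma's treat against 1.5 these were 115 and 3, 266 and 9, 28 and 12, and 946 and 749. Fitting only the groups compared, which uses fewer samples, gave 257 and 106 from day 3, 327 higher than in the GFP-positive gate, and 100 and 55 to day 5. Without day 0 replicate 1, which left 20891 genes tested and another estimate of the spread, 474 rose and 225 fell from day 3, and 203 rose and 124 fell to day 5. Leaving out 1 library of the groups compared gave 304 to 378 and 102 to 181, 607 to 708 and 50 to 56, 85 to 112 and 71 to 81, and 1572 to 1668 and 1293 to 1404, in the same order.

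Deviations of libraries with equal replicate numbers correlated at -0.215, 0.146 and -0.275 between day 3 and day 4 GFP-negative. Between the gates of day 4 they correlated at -0.108, 0.023 and -0.101. With 3 libraries in a group these values cannot show whether equal numbers came from the same organoids, and the main fit used no pairing. With a replicate block 399 genes rose and 175 fell from day 3, 731 and 67 differed between gates, 140 and 103 to day 5, and 1777 and 1473 from day 2. The count model was not run, since only 45.4% to 76.9% of low values per library were whole reads within 0.1.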
